A study of Homo sapiens with 19 samples.

Results

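Extracellular matrix is cut by zinc-dependent proteinases, and the genes described here are the matrix metalloproteinases (MMP), the ADAMTS proteinases, the ADAMTS-like proteins (ADAMTSL) and the tissue inhibitors of metalloproteinases (TIMP). They were taken from the table of counts by their symbols, and 53 of its 23441 genes were members: 24 MMP, 20 ADAMTS, 5 ADAMTSL and 4 TIMP genes. The group was selected on the readout itself, because ADAMTS10 and ADAMTS12 were higher with HIF-1α and ADAMTS15 was lower with HIF-2α in these libraries. The values of these 3 genes are therefore given as a description, without a test.

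The cells were 786-O, an established clear cell renal carcinoma line without functional VHL, so that HIF-2α accumulates in them, and all groups share this defect. The authors report that the line has no wild-type HIF-1α, only truncated or fusion HIF1A transcripts. Counts of HIF1A in control libraries are therefore not a measure of functional HIF-1α. Pools of these cells were transduced with virus carrying the empty vector pRRL (control cells), HIF-1α (HIF-1α re-expressing cells) or HIF-2α (HIF-2α overexpressing cells), and each vector also carried EGFP behind an internal ribosome entry site. They were grown in Dulbecco modified Eagle medium with foetal calf serum. RNA-seq gave 9 libraries, 3 per pool, and ChIP-seq gave 7 lists of peaks, 1 library for each antiserum and pool: HIF-2α and HIF-1β in all pools, and HIF-1α in the re-expressing cells. The pools are mixed populations of 1 line, and the sources used here do not say whether the 3 RNA samples of a pool came from separate infections, so p-values measure the spread between these samples.

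MMPs are made as inactive precursors and are secreted or held in the membrane. Between them they cut collagens, gelatin, fibronectin and many cell surface proteins. ADAMTS proteinases carry thrombospondin type repeats that hold them in the matrix, and they cut proteoglycans, procollagens or von Willebrand factor, while ADAMTSL proteins share the repeats but lack the catalytic domain. TIMPs bind and block the active enzymes. HIF-1α and HIF-2α pair with HIF-1β and bind the hypoxia response element, whose core is ACGTG or GCGTG.

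Library totals ranged from 27852754 to 54287621 counts. HIF1A had 171, 1682 and 473 CPM (counts scaled to a common library size, with TMM factors) in the HIF-1α libraries against 30.4, 36.7 and 152 in control libraries, and EPAS1, which encodes HIF-2α, had 946, 3244 and 880 CPM in the HIF-2α libraries against 456, 224 and 162. EPAS1 was also higher in the HIF-1α libraries than in the same-numbered control in 3 of 3 pairs, with 575, 627 and 397 CPM. Libraries of the same replicate number resembled each other across pools, so each result is given from edgeR's quasi-likelihood fit on cell pool alone and, where it changed a call or count, from a second one that adds replicate number as a block. Of 7 renal epithelial markers, 6 or 7 had at least 1 CPM in every library of each pool (PAX8, PAX2, KRT8, KRT18, LHX1 and CDH6 in all 3). The 7 summed to 1128 to 1550 CPM in control, 795 to 1188 in HIF-1α and 617 to 900 in HIF-2α libraries, so that the HIF-2α libraries lay below all control libraries. The 6 fibroblast markers summed to 2.74 to 10.0 CPM in control, 2.52 to 19.7 in HIF-1α and 1.78 to 15.4 in HIF-2α libraries, and the 4 endothelial markers to 1.27 CPM at most. Of 5 leukocyte markers, CD68 alone reached 1 CPM in every library, CD3E was at 0, and the 5 summed to 29.0 to 161 CPM over the 9 libraries. The part of these markers in the results was not tested.

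The sequences that bear on the chosen genes and on the members that moved with them are shown first. Added to them is a site near MMP17 where motifs overlap, although the fold changes of MMP17 did not pass in edgeR. They are the 200 bases from 250 to 51 bases before a start site in RefSeq (GRCh38.p14, strand of the gene), and for ADAMTS15 and MMP17 the 201 bases around the centre of peaks in the deposited lists (GRCh37, plus strand). Capitals mark HRE cores (ACGTG or GCGTG, searched on both strands, so also CACGT or CACGC) and AP-1 motifs (TGACTCA or TGAGTCA); where they share letters both were counted.
ADAMTS10, outer start (chr19:8610766-8610965): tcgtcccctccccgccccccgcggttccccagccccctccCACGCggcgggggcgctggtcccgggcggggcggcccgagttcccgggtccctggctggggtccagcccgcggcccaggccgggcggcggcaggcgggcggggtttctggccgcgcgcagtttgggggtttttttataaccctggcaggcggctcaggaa
ADAMTS10, inner start (chr19:8592267-8592466): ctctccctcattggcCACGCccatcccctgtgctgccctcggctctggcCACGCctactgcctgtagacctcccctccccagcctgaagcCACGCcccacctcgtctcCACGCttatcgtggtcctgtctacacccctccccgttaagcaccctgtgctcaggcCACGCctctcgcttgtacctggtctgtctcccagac
ADAMTS12 (chr5:33892041-33892240): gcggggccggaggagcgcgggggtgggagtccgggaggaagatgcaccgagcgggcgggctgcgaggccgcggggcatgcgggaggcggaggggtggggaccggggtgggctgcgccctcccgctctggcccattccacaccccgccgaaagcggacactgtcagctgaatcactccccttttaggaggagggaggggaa
ADAMTS14 (chr10:70672256-70672455): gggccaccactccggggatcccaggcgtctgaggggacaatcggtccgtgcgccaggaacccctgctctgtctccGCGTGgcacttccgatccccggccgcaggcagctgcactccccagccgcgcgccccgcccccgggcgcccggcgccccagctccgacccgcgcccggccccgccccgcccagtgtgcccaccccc
ADAMTSL3 (chr15:83653873-83654072): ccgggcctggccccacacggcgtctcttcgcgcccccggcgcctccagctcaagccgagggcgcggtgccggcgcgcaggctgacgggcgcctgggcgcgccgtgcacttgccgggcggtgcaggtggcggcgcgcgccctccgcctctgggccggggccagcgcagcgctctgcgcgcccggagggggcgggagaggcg
MMP7 (chr11:102530798-102530997): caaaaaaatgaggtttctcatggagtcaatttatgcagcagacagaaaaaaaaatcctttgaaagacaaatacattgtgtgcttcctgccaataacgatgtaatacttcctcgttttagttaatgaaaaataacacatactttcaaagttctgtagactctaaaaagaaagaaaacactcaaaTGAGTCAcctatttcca
ADAMTS15 peak site (chr11:130348067-130348267): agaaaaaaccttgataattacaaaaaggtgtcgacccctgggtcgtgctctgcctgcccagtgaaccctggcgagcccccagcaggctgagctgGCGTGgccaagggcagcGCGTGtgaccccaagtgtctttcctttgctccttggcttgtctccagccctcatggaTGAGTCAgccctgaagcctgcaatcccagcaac
MMP17 peak site (chr12:132337066-132337266): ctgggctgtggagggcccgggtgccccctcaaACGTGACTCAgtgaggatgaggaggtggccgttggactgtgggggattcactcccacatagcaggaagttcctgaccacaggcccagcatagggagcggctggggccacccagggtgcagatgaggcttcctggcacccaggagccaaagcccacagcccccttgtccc

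The outer start of ADAMTS10 had 1 HRE core and its inner start 5, ADAMTS14 had 1, and no core was in these windows of ADAMTS12, ADAMTSL3 or MMP7. Over the 33 promoter entries of 32 members, 14 (42.4%) held a core, beside 35.8% of 35116 RefSeq promoters. MMP7 held the only AP-1 motif among the 33 (3.03%), beside 3.23% of all promoters. A match is a description of these letters and says nothing of binding. ADAMTS15, ADAMTS5 and MMP2 were among the members not matched.

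Which of these genes are expressed in 786-O cells was asked first. Of the 53 members, 36 passed edgeR's filter on low counts (15 MMP, 14 ADAMTS, 4 ADAMTSL and 3 TIMP genes) and 17 did not. The highest count of those 17 in any library was 17, in ADAMTS4, and 5 of them had no count at all (ADAMTS19, ADAMTS7P1, MMP23A, MMP26 and MMP27), which allows up to 3 counts per library, or 0.0553 to 0.108 CPM. MMP23A and MMP23B are near-identical copies and ADAMTS7P1 is a pseudogene related to ADAMTS7, so that their counts are uncertain. Of the 36, ADAMTS10, ADAMTS14, MMP10 and MMP28 passed only through the HIF-1α libraries and would have failed without them, so a test of a difference in favour of HIF-1α is conditioned on it, and no adjusted p is given for these 4. TIMP3, which binds to the matrix, had 10 counts at most, and the stromelysin MMP3 7 at most.

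Levels between genes were compared as CPM per kb of exonic length. The soluble inhibitor TIMP1 (116 ± 58.1 in control libraries, mean ± SD, n = 3) and the membrane-bound collagenase and activator of MMP2, MMP14 (90.6 ± 36.6), were highest and their ranges overlapped. TIMP2, which takes part in the activation of MMP2 by MMP14, had 54.6 ± 21.5 and the gelatinase MMP2 45.5 ± 41.1, again overlapping. ADAMTS1, a proteoglycanase, had 20.6 ± 5.41 and the membrane-type MMP24 25.7 ± 15.9. MMP7 had 5.13 ± 7.24 and ADAMTS9, another proteoglycanase, 3.3 ± 1.09. These 8 genes were the highest by the mean over all 9 libraries, while in control libraries ADAMTS3 (3.49 ± 2.2) lay above ADAMTS9. The chosen genes lay far lower: ADAMTS15 had 1.18 ± 0.856, ADAMTS12 0.395 ± 0.278 and ADAMTS10 0.138 ± 0.205 CPM per kb in control libraries. Ordered by the mean over all 9 libraries, the ranges of neighbouring genes overlapped from TIMP1 down to MMP28 except between TIMP2 and ADAMTS1.

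**Figure D1:**
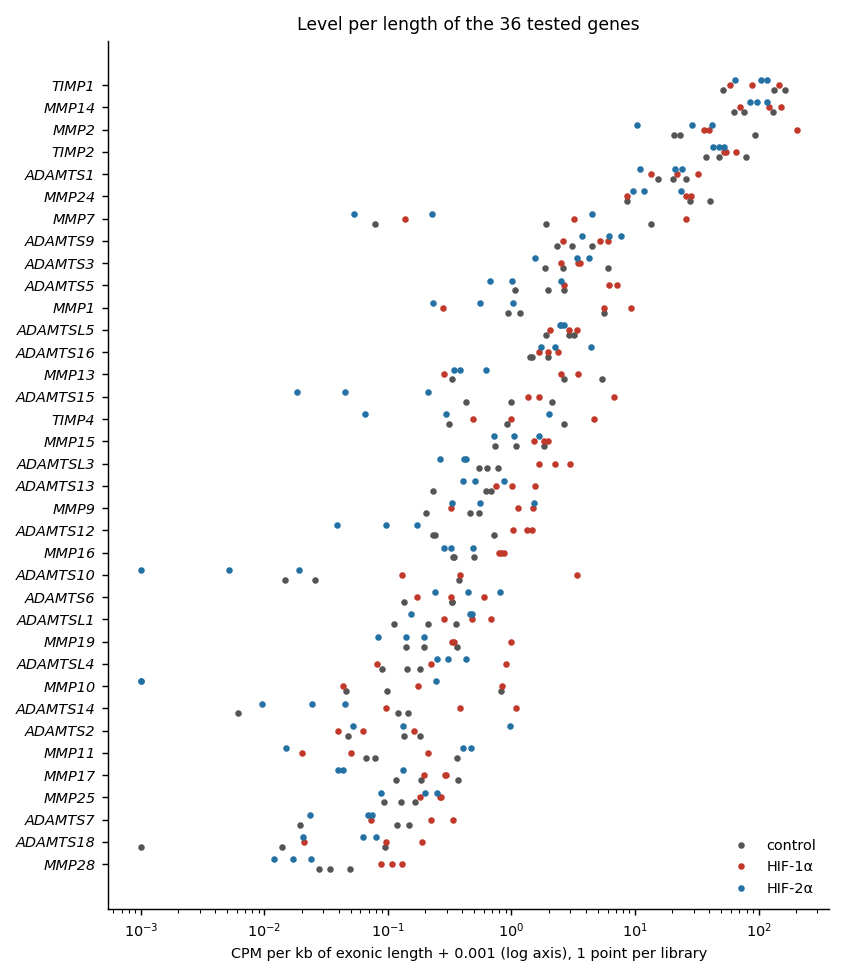
CPM per kb of exonic length (log axis, 0.001 added) of the 36 tested genes, with 1 point per library coloured by cell pool. TIMP1 and MMP14 lie at the top and MMP28 at the bottom, and most genes have overlapping pools.

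The chosen genes are described by their values in each library. ADAMTS10 (chr19:8645124-8675620 on GRCh37), a proteinase associated with fibrillin microfibrils, had 0.735, 2.2 and 19.3 CPM in HIF-1α libraries 1, 2 and 3. It had 0.0776, 0.142 and 2.14 CPM in control libraries and 0.0241, 0 and 0.103 CPM in HIF-2α libraries. The HIF-1α value exceeded that of the same-numbered control library in 3 of 3 pairs, but the groups overlapped, since control library 3 lay above HIF-1α library 1. Number 3 was the highest in each pool. The fitted log2 fold change was 3.23 ± 1.39 (SE) for HIF-1α against control and -4.04 ± 1.72 for HIF-2α against control, the latter resting on 1, 0 and 4 counts in the HIF-2α libraries.

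ADAMTS12 (chr5:33523640-33892124), which cuts cartilage oligomeric matrix protein, had 14, 12.9 and 9.96 CPM in HIF-1α libraries, 2.2, 2.3 and 6.88 CPM in control libraries and 0.915, 1.64 and 0.36 CPM in HIF-2α libraries. The 3 pools did not overlap, with HIF-1α highest and HIF-2α lowest. The log2 fold change was 1.69 ± 0.58 for HIF-1α against control and -1.98 ± 0.60 for HIF-2α against control.

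ADAMTS15 (chr11:130318540-130346540), a proteoglycanase, had 0.265, 0.105 and 1.26 CPM in HIF-2α libraries and 2.59, 6.0 and 12.7 CPM in control libraries. All 3 HIF-2α libraries lay below all control libraries, and the log2 fold change was -3.68 ± 0.98. The HIF-1α libraries had 8.14, 9.95 and 40.9 CPM, above the same-numbered control in 3 of 3 pairs but overlapping the control libraries as groups, with a log2 fold change of 1.47 ± 0.87. In bulk RNA, fewer cells that express a gene and less RNA per cell cannot be told apart, here and for each gene below.

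**Figure D2:**
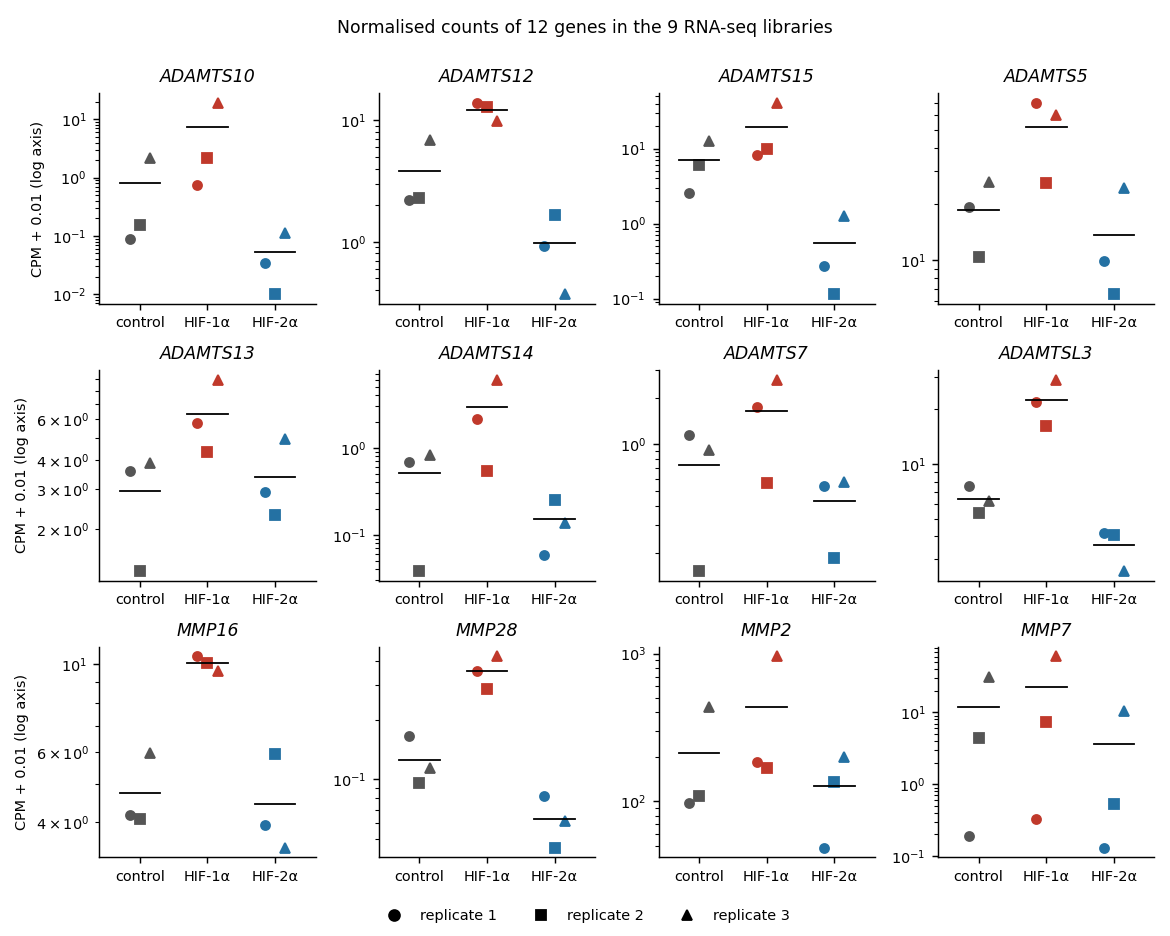
Normalised counts, CPM (log axis, 0.01 added) of 12 genes in the 9 RNA-seq libraries, by cell pool, with a symbol for each replicate number and a line at the mean. ADAMTS12, ADAMTSL3, MMP16 and MMP28 have HIF-1α libraries above all others, while MMP2 and MMP7 follow the replicate number.

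The effect of HIF-1α re-expression was then read over all tested members. The 3 chosen genes are left out of the counts, which leaves 33 tested members. In the fit without the block, 0 of the 33 passed an adjusted p of 0.05, as did 0.0% of the 14225 genes tested, and 6 members were higher and 0 lower when the unadjusted p was held to 0.05, beside 19.4% of all genes in either direction. With the replicate block 3 members were called higher (ADAMTS5, ADAMTS13 and ADAMTSL3), where 5.41% of all genes were called higher, and 0 lower, where 2.55% were. DESeq2 called 2 (ADAMTSL3 and MMP16; 5.01% of all genes), and 6 with the block (20.1%). HIF-1α and control libraries did not overlap for 5 members that were higher (12.9% of all genes) and for 0 that were lower (11.2%). The 6 at the unadjusted p include ADAMTS14 and MMP28, the 6 of DESeq2 with the block ADAMTS14, and the 5 without overlap MMP28. ADAMTS14 and MMP28 passed the filter only through the HIF-1α libraries, and so did MMP10. All of these are in the medians below. Because this comparison also served to choose the group, no more is read from these counts. In the fit without the block the median log2 fold change of the 33 was 0.66, beside 0.04 for all genes. By family it was 0.48 for the 11 remaining ADAMTS, 1.32 for the 4 ADAMTSL, 0.88 for the 15 MMP and 0.09 for the 3 TIMP genes.

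ADAMTSL3 (chr15:84322840-84708594), a matrix protein without proteinase domain, had 21.9, 16.2 and 29.2 CPM in HIF-1α libraries, 7.61, 5.35 and 6.23 CPM in control libraries and 4.16, 4.05 and 2.57 CPM in HIF-2α libraries. The 3 pools did not overlap. The log2 fold change for HIF-1α against control was 1.81 ± 0.32 (edgeR, adjusted p = 0.149) without the block and 1.81 ± 0.29 (adjusted p = 0.0308) with it, and the adjusted p ranged from 1.00e-06 to 0.337 over the 13 alternatives, with DESeq2 and the block among them.

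ADAMTS5 (chr21:28290241-28339407), a major aggrecan-cutting enzyme, had 69.8, 25.8 and 60.0 CPM in HIF-1α, 19.4, 10.4 and 26.2 CPM in control and 9.89, 6.56 and 24.5 CPM in HIF-2α libraries. Each HIF-1α library lay above the same-numbered control, although HIF-1α library 2 lay just below control library 3. The log2 fold change was 1.48 ± 0.54 (edgeR, adjusted p = 0.204), and 1.48 ± 0.27 with the block (adjusted p = 0.0327, 4.79e-05 to 0.411 over the alternatives).

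ADAMTS13 (chr9:136279478-136324524), which cuts von Willebrand factor, had 5.78, 4.3 and 8.92 CPM in HIF-1α, 3.57, 1.31 and 3.88 CPM in control and 2.89, 2.3 and 4.93 CPM in HIF-2α libraries. All HIF-1α libraries lay above all control libraries. The log2 fold change was 1.12 ± 0.49 (edgeR, adjusted p = 0.252), and 1.17 ± 0.29 with the block (adjusted p = 0.0453, 0.00318 to 0.527 over the alternatives).

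With the block and without libraries numbered 1, 2 or 3, none of ADAMTSL3, ADAMTS5 and ADAMTS13 kept an adjusted p under 0.05 against control: it was 0.0523, 0.151 and 0.0854 for ADAMTSL3, 0.0523, 0.17 and 0.0854 for ADAMTS5 and 0.0612, 0.252 and 0.185 for ADAMTS13. The procollagen N-proteinase ADAMTS14 came after ADAMTS10 among members with at least 1 CPM in the higher pool, with a log2 fold change of 2.52 ± 1.04. The largest falls were small beside their errors: -0.44 ± 0.99 for ADAMTS2, another procollagen N-proteinase, -0.44 ± 0.92 for the collagenase MMP13 and -0.29 ± 0.58 for MMP24, and those of MMP13 and MMP24 changed sign without control library 3 or without HIF-1α library 1.

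**Figure D3:**
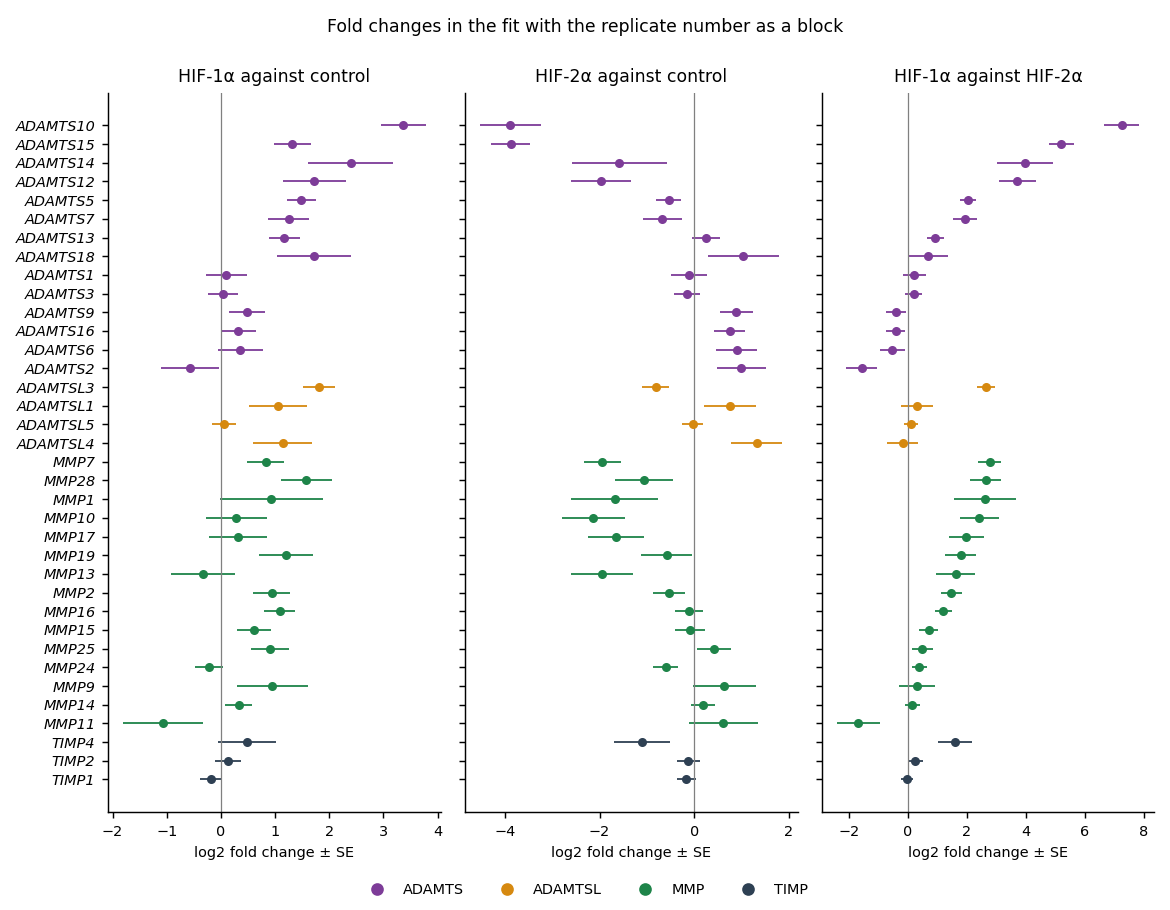
Log2 fold changes (points) with their SE (bars) of the 36 tested genes in 3 comparisons, from edgeR with the replicate block, coloured and grouped by family and, within a family, ordered by the HIF-1α against HIF-2α value. ADAMTS10, ADAMTS12 and ADAMTS15 were chosen for these differences, and the TIMP1 and TIMP2 points lie near 0 in each panel.

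For HIF-2α overexpression against the same control libraries, 0 of the 33 members passed in the fit without the block (0.0% of all genes), while 3 were lower and 0 higher when the unadjusted p was held to 0.05, beside 5.89% of all genes in either direction. With the block 0 were called higher (0.112% of all genes) and 0 lower (0.155%). DESeq2 called 0 (0.454% of all genes), and 2 with the block, MMP13 and MMP7, both lower (3.39%). Libraries did not overlap for 1 member that was higher, ADAMTSL4 (6.0% of all genes), and for 2 that were lower, ADAMTSL3 and MMP28 (5.19%). MMP28 rests here on 3, 1 and 2 counts in HIF-2α and 6, 3 and 4 in control libraries. It passed the filter only through the HIF-1α libraries, as did ADAMTS14 and MMP10, and these genes are in the medians. The median log2 fold change of the 33 was -0.19, beside -0.02 for all genes, with -0.75 in MMP, 0.21 in the 11 remaining ADAMTS, 0.31 in ADAMTSL and -0.27 in TIMP genes. This comparison, too, served to choose the group.

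The interstitial collagenase MMP1 (chr11:102660132-102668891) had 2.79, 0.628 and 1.52 CPM in HIF-2α libraries and 15.5, 3.19 and 2.55 CPM in control libraries. It was lower in 3 of 3 pairs with overlapping groups, and the log2 fold change was -2.09 ± 1.08 (edgeR, adjusted p = 0.842). About 8.14% of its exonic length lies opposite WTAPP1, and whether the authors counted by strand is not given in the sources used here. MMP13 had 0.963, 1.08 and 1.75 CPM in HIF-2α and 0.931, 7.57 and 15.4 CPM in control libraries, with a log2 fold change of -2.65 ± 0.99 (adjusted p = 0.823 by edgeR, 0.253 with the block, and 0.034 by DESeq2 with the block), and HIF-2α library 1 was slightly above control library 1. On the other side, ADAMTSL4 had 1.95, 1.6 and 2.77 CPM in HIF-2α and 0.569, 0.91 and 1.17 CPM in control libraries. Its log2 fold change was 1.25 ± 0.75 (edgeR, adjusted p = 0.842), and 28.2% of its exonic length is shared with another annotated gene on the same strand. The gelatinase MMP9 had a log2 fold change of 0.99 ± 0.71 and ADAMTS2 one of 1.68 ± 1.00, which turned negative without HIF-2α library 3, and neither passed in edgeR or DESeq2, with or without the block. MMP7 was lower in 3 of 3 pairs, with an adjusted p of 0.0917 in edgeR with the block and 2.35e-04 in DESeq2 with the block.

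HIF-1α and HIF-2α libraries were set against each other to ask where the 2 subunits differ. This comparison uses the same libraries that chose the group. Without the block 1 of the 33 members passed, ADAMTSL3 (0.0492% of all genes), while 10 were higher and 0 lower when the unadjusted p was held to 0.05 (13.6% of all genes in either direction). With the block 8 were higher in HIF-1α libraries (4.54% of all genes) and 0 lower (1.38%), and the 8 include ADAMTS14 and MMP28, which passed the filter only through those libraries. DESeq2 called 5 (4.43%), and 12 with the block (12.2%), of which ADAMTS2 was lower. Libraries did not overlap for 8 members that were higher (10.4%) and for 0 that were lower (8.82%). Both DESeq2 counts include ADAMTS14, that with the block also MMP10, and the 8 without overlap include ADAMTS14 and MMP28. MMP10, too, passed the filter only through the HIF-1α libraries, and these genes are also in the medians. The median log2 fold change of the 33 was 0.64, beside 0.02 for all genes, with 1.78 in MMP, 0.28 in the 11 remaining ADAMTS, 0.35 in ADAMTSL and 0.27 in TIMP genes.

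ADAMTSL3 differed by 2.64 ± 0.33 on the log2 scale (edgeR, adjusted p = 0.0462), and by 2.63 ± 0.30 with the block (adjusted p = 0.00348). Without the block the call was lost when HIF-1α library 3 or any 1 of the HIF-2α libraries was left out, or when only these pools were fitted, and 0.174 was the highest adjusted p over the alternatives. With the block and without number 1, 2 or 3, the adjusted p was 0.0338, 0.00771 and 0.0121. ADAMTS5 differed by 2.02 ± 0.28 with the block (edgeR, adjusted p = 0.00571; 0.168 without it, 1.00e-09 to 0.408 over the alternatives) and passed without any 1 number as well (0.0353, 0.0283 and 0.00875). The lowest HIF-1α value of ADAMTS5 lay just above the highest HIF-2α value.

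ADAMTS14 (chr10:72432262-72522197) had 2.13, 0.532 and 6.07 CPM in HIF-1α, 0.0481, 0.244 and 0.128 CPM in HIF-2α and 0.673, 0.0284 and 0.808 CPM in control libraries, and the HIF-1α and HIF-2α libraries did not overlap. The log2 difference from HIF-2α was 3.97 ± 0.96 with the block, on 2, 7 and 5 counts in the HIF-2α libraries.

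MMP16 (chr8:89044239-89340254), a membrane-type MMP, had 10.4, 10.0 and 9.59 CPM in HIF-1α, 3.92, 5.93 and 3.44 CPM in HIF-2α and 4.17, 4.07 and 5.97 CPM in control libraries. Its HIF-1α libraries lay above all 6 others and differed among themselves by little. The log2 difference from HIF-2α was 1.19 ± 0.29 (edgeR with the block, adjusted p = 0.0451; 0.00241 to 0.424 over the alternatives), and that from control was 1.08 ± 0.29 (adjusted p = 0.051 with the block in edgeR).

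MMP28, known as epilysin (chr17:34083268-34122711), had only 14, 11 and 22 counts in HIF-1α, 3, 1 and 2 in HIF-2α and 6, 3 and 4 in control libraries. All HIF-1α libraries lay above all others at this low level. The log2 difference from HIF-2α was 2.63 ± 0.53 with the block.

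ADAMTS7 (chr15:79051548-79103806), which like ADAMTS12 cuts cartilage oligomeric matrix protein, had 1.74, 0.557 and 2.61 CPM in HIF-1α, 0.53, 0.174 and 0.565 CPM in HIF-2α and 1.14, 0.142 and 0.912 CPM in control libraries. The groups overlapped and number 2 was lowest in each pool. The difference from HIF-2α was 1.92 ± 0.40 (edgeR with the block, adjusted p = 0.0265; 0.00369 to 0.729 over the alternatives).

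MMP2 (chr16:55423612-55540603) had 186, 169 and 957 CPM in HIF-1α, 48.6, 136 and 199 CPM in HIF-2α and 97.1, 108 and 438 CPM in control libraries. HIF-1α library 3 and control library 3 stood above the rest, and HIF-1α exceeded HIF-2α in 3 of 3 pairs. The difference was 1.47 ± 0.35 with the block (edgeR, adjusted p = 0.0424) and 1.78 ± 0.83 without it (adjusted p = 0.386; 8.14e-04 to 0.901 over the alternatives).

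MMP7 (chr11:102391239-102401481), matrilysin, which lacks the hemopexin domain of most MMPs, had 0.319, 7.39 and 60.2 CPM in HIF-1α, 0.12, 0.523 and 10.4 CPM in HIF-2α and 0.181, 4.38 and 31.1 CPM in control libraries. Number 1 was lowest and number 3 highest in each pool, and within each number HIF-1α was highest and HIF-2α lowest. The difference was 2.77 ± 0.39 with the block (edgeR, adjusted p = 0.0066; 1.05e-09 to 0.997 over the alternatives) and was past the threshold without number 1 or 2 but not without number 3 (adjusted p of 0.0258, 0.0258 and 0.0645).

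Without the block, the edgeR calls of MMP16, ADAMTS7, MMP2 and MMP7 were lost. With the block they were also lost whichever number was left out for MMP16 (adjusted p of 0.187, 0.097 and 0.141 without number 1, 2 and 3) and ADAMTS7 (0.102, 0.0891 and 0.195), and without number 1 or 3 for MMP2 (0.187, 0.00588 and 0.246). Among members with at least 1 CPM in the higher pool, the largest differences in favour of HIF-2α were those of ADAMTS2 (-2.12 ± 1.01), the stromelysin MMP11 (-1.64 ± 1.16) and ADAMTS16 (-0.48 ± 0.36), none of which passed in edgeR. DESeq2 with the block called ADAMTS2 (adjusted p = 0.035) but not the others.

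No TIMP gene was called in any comparison in edgeR, with or without the block. TIMP1 had 168 ± 84 CPM in control, 142 ± 64.9 in HIF-1α and 139 ± 39.9 in HIF-2α libraries (mean ± SD, n = 3), with overlapping groups. Its log2 fold change was -0.24 ± 0.45 for HIF-1α and -0.27 ± 0.45 for HIF-2α against control (edgeR, adjusted p = 0.799 and 0.929). TIMP2 had 339 ± 134, 360.0 ± 44.8 and 298 ± 29.7 CPM in the same order, with log2 fold changes of 0.09 ± 0.28 and -0.19 ± 0.28. Its HIF-1α libraries (411, 329 and 340 CPM) lay just above its HIF-2α libraries (267, 326 and 300 CPM), and both overlapped control libraries. TIMP4 was low, with 3.18, 0.37 and 1.09 CPM in control, 5.61, 0.582 and 1.19 CPM in HIF-1α and 2.41, 0.349 and 0.0771 CPM in HIF-2α libraries, and number 1 was highest in each pool. Some exonic length is shared with another annotated gene in TIMP4 (14.2%, SYN2), MMP24 (18.4%, MMP24OS) and MMP9 (18.4%, SLC12A5-AS1), so that their counts are uncertain. MMP14 had 419 ± 169, 529.8 ± 188 and 462 ± 72.6 CPM in control, HIF-1α and HIF-2α libraries and log2 fold changes of 0.34 ± 0.35 and 0.14 ± 0.35 against control.

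How far each gene followed the pool or the replicate number was measured as shares of its sum of squares of log2 CPM over the 9 libraries. The median over the 36 was 28.9% between pools and 41.7% between replicate numbers, beside 32.6% and 35.9% over all genes, and 20 of the 36 (55.6%) varied more between numbers, beside 52.5% of all genes. The 36 include the 3 chosen genes and the 4 that passed the filter only through the HIF-1α libraries. ADAMTSL3 (93.2% between pools), MMP28 (92.9%), ADAMTS12 (84.7%) and MMP16 (83.6%) varied almost wholly between pools. ADAMTS12 was chosen for its difference between pools and MMP28 passed the filter through 1 pool, so no more is read from their shares. TIMP1 (88.3% between numbers), MMP7 (85.7%), MMP24 (78.5%) and ADAMTS3 (75.2%) varied mostly between numbers. What the replicate numbers stand for is not given in the sources used here.

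**Figure D4:**
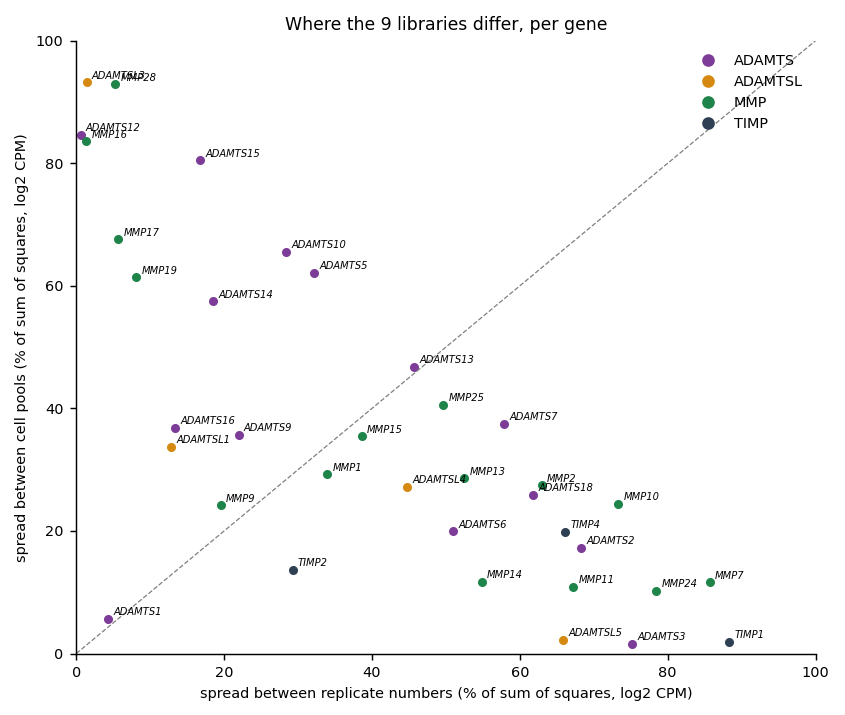
Share of the sum of squares of log2 CPM between the 3 cell pools (vertical axis, %) against that between the 3 replicate numbers (horizontal axis, %), 1 point per tested gene, coloured by family. The dashed line marks equal shares: ADAMTSL3 and MMP28 lie at the upper left, and TIMP1 and MMP7 at the lower right.

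Binding was asked next: which of these genes lie near a peak, measured from the midpoint of the 2500-bp window to any annotated start site. Of the 53 members 17 (32.1%) had a peak of any list within 10 kb, beside 38.9% of the 20654 genes placed on GRCh37. In HIF-1α re-expressing cells 9 members (17.0%) had a HIF-1α peak and 11 (20.8%) a HIF-1β peak, beside 24.0% and 27.9% of all genes, and 1 (1.89%) had a HIF-2α peak, beside 3.04%. In HIF-2α overexpressing cells 7 (13.2%) had a HIF-2α peak and 7 a HIF-1β peak, beside 10.4% and 11.4%. In control cells 1 (1.89%) had a HIF-2α peak and 10 (18.9%) a HIF-1β peak, beside 3.73% and 18.3%. Each list comes from 1 library with no score, so no test was made.

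The chosen genes had no peak within 10 kb in any list. The nearest was 63.5 kb away for ADAMTS10 (HIF-1α) and 110 kb for ADAMTS12 (HIF-1β in control cells). For ADAMTS15 it lay 29.5 to 29.7 kb downstream of its start and beyond the end of the gene, in the intergenic site printed above, where 5 lists overlapped: HIF-1α in re-expressing cells, HIF-2α and HIF-1β in HIF-2α overexpressing cells, and HIF-2α and HIF-1β in control cells. ADAMTS15 is the gene with the nearest start site, and the 201 bases hold 2 HRE cores and 1 AP-1 motif. Of the peaks in these 5 lists 34.6% to 52.1% had a core and 5.54% to 19.6% an AP-1 motif in 201 bases. ADAMTS15 was lowest in HIF-2α and highest in HIF-1α libraries, and the lists alone do not show whether binding at this site differed. ADAMTSL3 and MMP7 had no peak within 50 kb (72.0 and 53.9 kb for the nearest).

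Of the other members described above, ADAMTS5 had a HIF-1α and a HIF-1β peak 0.4 kb from its start in HIF-1α re-expressing cells and no peak within 50 kb in the other 5 lists. The windows (chr21:28337033-28339549) overlap an exon of it, and their central 201 bases held 1 HRE core. MMP16 had a HIF-1α peak in re-expressing cells and a HIF-1β peak in control cells within 0.2 kb of a start (chr8:89338561-89341666), where an antisense lncRNA also starts. MMP2 had a HIF-1β peak 0.127 kb from an annotated start in re-expressing cells. Farther along MMP2, an intronic site (chr16:55532128-55534627) was in 4 lists, HIF-1α in re-expressing cells and HIF-2α and HIF-1β in overexpressing cells among them. Another intronic site (chr16:55535805-55538478), 2.15 kb from an annotated start, was in 3 lists: HIF-2α and HIF-1β in overexpressing cells and HIF-1β in control cells. ADAMTS13 had HIF-1α and HIF-1β peaks in re-expressing cells and a HIF-1β peak in control cells in an intron 3.8 kb from its start (chr9:136281954-136284608), but the start of REXO4 lies nearer, at 0.065 kb. ADAMTS14 had 1 HIF-1β peak 7.8 kb upstream in control cells, and ADAMTS7 1 HIF-1β peak 8.0 kb from an annotated start in HIF-2α overexpressing cells. The ADAMTS7 peak lies beyond the end of the gene and nearer to the start of a pseudogene, at 4.03 kb.

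Peaks near a start also occurred in genes without a call in edgeR. ADAMTS1 had HIF-1α and HIF-1β peaks in re-expressing cells and a HIF-1β peak in control cells within 0.6 kb of its starts, and 165 ± 69 CPM in HIF-1α against 151 ± 39.5 in control libraries (log2 fold change 0.13 ± 0.38; edgeR, adjusted p = 0.871). ADAMTS9 had peaks within 1 kb of a start in 5 lists, where the antisense ADAMTS9-AS2 also starts, and 49.2 ± 18.9 and 62.7 ± 21.3 CPM in HIF-1α and HIF-2α against 35.2 ± 11.7 in control libraries, with log2 fold changes of 0.48 ± 0.37 and 0.83 ± 0.38 that did not pass in edgeR or DESeq2. ADAMTS16 carried the only HIF-2α peak of control cells within 10 kb of a member, 5.7 kb downstream of its start, also found with HIF-1β there and with both antisera in HIF-2α overexpressing cells, and its log2 fold change for HIF-2α was 0.79 ± 0.36 (edgeR, adjusted p = 0.837). MMP17, a membrane-type MMP anchored by a lipid tail, had the only HIF-2α peak of HIF-1α re-expressing cells within 10 kb of a member. It lay in an intergenic site that 5 lists share, beyond the end of the gene and 7.7 kb downstream of an annotated start. A lncRNA starts nearer, at 4.8 kb. In this site an HRE core and an AP-1 motif overlap in the printed sequence. Such an arrangement, with 2 shared bases, was found in 0.121% to 1.11% of the peaks of the 7 lists. MMP17 had 1.15, 0.785 and 1.17 CPM in HIF-1α, 0.169, 0.523 and 0.154 CPM in HIF-2α and 0.466, 0.74 and 1.49 CPM in control libraries, and its fold changes did not pass in edgeR. DESeq2 with the block called it for HIF-1α against HIF-2α (adjusted p = 0.0334). TIMP2 had a HIF-1β peak 0.093 kb from a start in re-expressing cells and a HIF-1β peak at 8.49 kb in control cells. Its HIF-2α peak in overexpressing cells lay in an intron, 9.3 kb from a start inside the gene. That site was in 3 lists, since a HIF-1α peak of re-expressing cells, 10.015 kb from the same start, and another HIF-1β peak of control cells overlapped it. ADAMTS3 (chr4:73146686-73434938, minus strand) had a HIF-1β peak 0.021 kb from a start in re-expressing cells. It had a HIF-2α peak at 6.92 kb from the same start in overexpressing cells, where a lncRNA starts nearer, at 3.86 kb. That start lies far inside the gene, with the HIF-1β peak at chr4:73176701-73179200. Neither TIMP2 nor ADAMTS3 was called. Of the untested members, MMP20 and MMP23A had a peak within 10 kb. MMP11, MMP25 and ADAMTSL4 had peaks within 10 kb that lay nearer to the start of another gene in at least 1 list. About 30.6% of the exonic length of MMP25 lies opposite MMP25-AS1, which makes its counts uncertain.

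**Figure D5:**
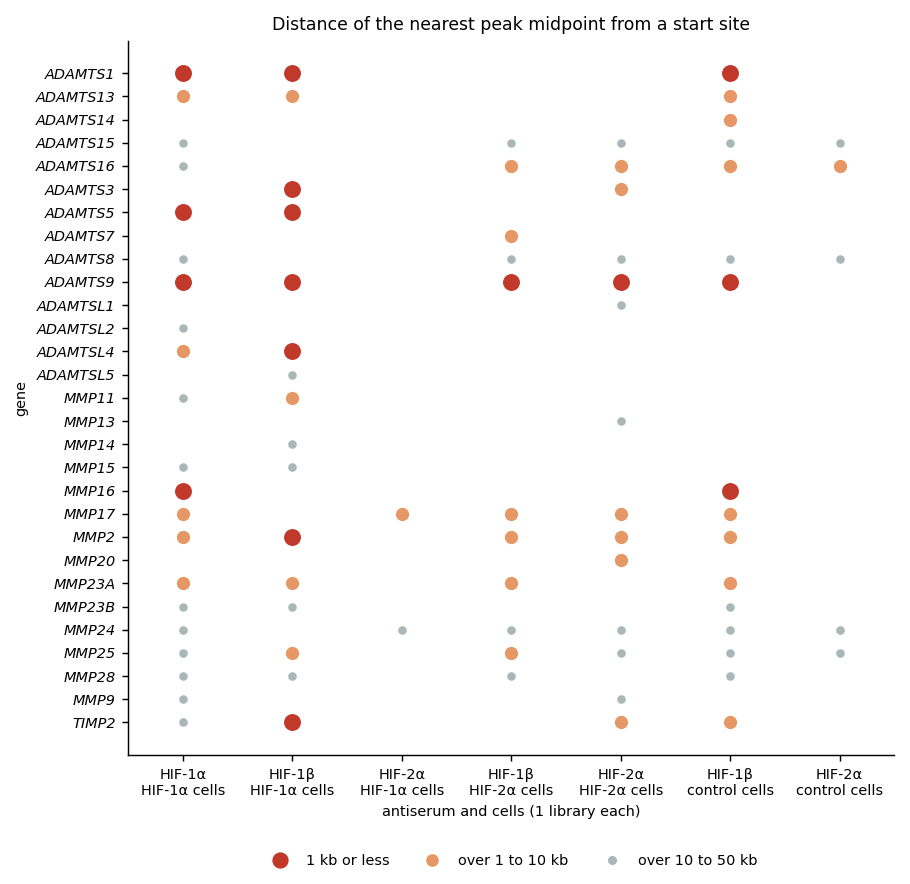
Distance from the nearest peak midpoint to a start site of the gene (dot size and colour: 1 kb or less, over 1 to 10 kb, over 10 to 50 kb) in each of the 7 peak lists, for the 29 members with a peak within 50 kb in any list. ADAMTS5 has dots only under the HIF-1α and HIF-1β antisera in HIF-1α re-expressing cells, and ADAMTS15 only small dots, at one distant site.

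Other genes of matrix turnover were read from 3 lists, chosen with earlier results of these data known. Of 25 substrates of these proteinases 18 were tested, and with the block 8 rose with HIF-1α against control and 0 fell (5.41% and 2.55% of all genes), with a median log2 fold change of 1.42 beside 0.04 for all genes. Fibronectin (FN1) had a mean of 18182 CPM in HIF-1α and 4261 in control libraries (log2 fold change 2.03 ± 0.43, edgeR with the block, adjusted p = 0.0371), and FBN1, which encodes fibrillin-1, 65.8 and 8.73 CPM (2.88 ± 0.46, adjusted p = 0.0308). The basement membrane genes NID2 and HSPG2 rose by 1.98 ± 0.24 and 1.62 ± 0.28 (adjusted p = 0.0264 and 0.0315, edgeR with the block). MATN2, RELN, TNC and CDH1 made up the 8. Without the block none of them passed, and none passed for HIF-2α against control with it. For HIF-1α against HIF-2α, 8 substrates were higher and 1, NID1, lower with the block (4.54% and 1.38% of all genes).

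Of 22 activators, inhibitors and receptors 17 were tested, and with the block 3 rose and 0 fell with HIF-1α against control (5.41% and 2.55% of all genes): the endocytic receptor LRP1 (423 against 90.0 CPM, log2 fold change 2.23 ± 0.44, edgeR with the block, adjusted p = 0.0358), the proprotein convertase PCSK5 (1.51 ± 0.38, adjusted p = 0.0454) and the proteoglycan SPOCK1 (0.94 ± 0.17, adjusted p = 0.0340). Against HIF-2α, PCSK5 and SPOCK1 were higher and the convertases FURIN and PCSK6 lower in HIF-1α libraries (4.54% and 1.38% of all genes). Of 21 ADAM proteinases, the membrane-bound relatives of ADAMTS, 11 were tested and 1 rose with HIF-1α, beside 5.41% of all genes. It was ADAM12 (53.1 against 18.6 CPM, 1.5 ± 0.23, edgeR with the block, adjusted p = 0.0293). None of these lists had a member that passed without the block, or for HIF-2α against control with it.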

How the data were processed

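For the 9 RNA-seq libraries the deposited table holds raw counts, 1 row per gene symbol, without normalization: reads were aligned to GRCh37 with TopHat 2.0.8b and Bowtie 1.0.0 and reads within UCSC genes counted with HTSeq 0.5.4p3, replicates kept apart. The deposited ChIP-seq lists hold peak positions only (GRCh37, BWA 0.7.5a-r405, peaks called by both T-PIC and MACS), and their depth is unknown. The 3 input samples were not analysed here.

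All 14225 genes past edgeR's own filter were fitted together in edgeR 4.0.16 (R 4.3.3): TMM factors, cell pool as the only term, the quasi-likelihood test and Benjamini-Hochberg adjustment with a threshold of 0.05. CPM are TMM-normalised, and SE are the size of the log2 fold change over the root of F. Means ± SD are over 3 libraries. After subtraction of pool means, the 9 same-numbered pairs of libraries correlated at 0.348 to 0.652 across genes and the 18 others at -0.478 to 0.0281, so the numbers pair the libraries, and adding the number as a block was an alternative. Others were DESeq2 1.42.0, other factors, no filter, only the pools compared and each library left out.

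Positions and exonic lengths came from GENCODE v44 lifted to GRCh37, where all 53 members were placed by the same symbol. Peaks were read against any annotated start site, with no test. Promoters were taken from RefSeq (GRCh38.p14).

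Members and lists were chosen with earlier results of these data known. Genes were named by rule: ADAMTS10, ADAMTS12 and ADAMTS15, members called with or without the block, the 3 largest rises and falls per comparison with at least 1 CPM in the higher pool, the 8 highest levels per length, TIMP genes, MMP1, MMP2, MMP9 and MMP14, tested members with a peak within 10 kb, and HIF1A and EPAS1. MMP3, MMP10, ADAMTS4, the genes at 0 counts and genes of the 3 lists were named after their values were seen.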

Additional observations from a re-analysis of the deposited data

How the results depend on the processing

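The counts of members called depended on the replicate block and the tool. The counts here include the 3 chosen genes. HIF-1α against control gave 0 members in edgeR without the block, 5 with the replicate block, 2 with DESeq2 and 9 with DESeq2 and the block. Without the chosen genes these were 0, 3, 2 and 6, beside 0.0%, 5.41% higher with 2.55% lower, 5.01% and 20.1% of all genes. HIF-2α against control gave 0, 1, 1 and 5 in the same order, and 0, 0, 0 and 2 without them (0.0%, 0.112% with 0.155%, 0.454% and 3.39% of all genes). HIF-1α against HIF-2α gave 1, 11, 8 and 15, and 1, 8, 5 and 12 without them (0.0492%, 4.54% with 1.38%, 4.43% and 12.2%). With the chosen genes it gave 3 when no filter on low counts was used and 0 when only the 2 pools compared were fitted. Other normalization factors left the counts of edgeR at 0, 0 and 1. Leaving out each library in turn without the block gave 0 to 0, 0 to 0 and 0 to 1 members. With the block, leaving out each replicate number gave 0 to 1 members for HIF-1α against control, 0 to 1 for HIF-2α against control and 6 to 8 for HIF-1α against HIF-2α, from 5, 1 and 11. The cause was not tested. The 1 member was the chosen gene ADAMTS10 in the first comparison and the chosen gene ADAMTS15 in the second, and the 6 to 8 include chosen genes. For the settings on the filter, the pools fitted, the factors and what was left out, the share of all genes was not taken. Members with a peak in any list numbered 17 within 10 kb, or 32.1% beside 38.9% of all genes. The number was 10 within 5 kb, 29 within 50 kb, 10 with a single start site per gene and 18 from the edge of the window. For these settings the share of all genes was not taken. Ranges of the log2 fold change were taken only for the chosen genes, the members called in edgeR and the 3 largest rises and falls per comparison. Among these, 3 genes changed sign when a library was left out. They were MMP13 (-1.04 to 0.46) and MMP24 (-0.72 to 0.18) for HIF-1α against control, and ADAMTS2 (-0.39 to 2.19) for HIF-2α against control. Sign changes of the other members were not counted. In MMP13 the values were 0.07 without HIF-1α library 1 and 0.46 without control library 3, in MMP24 0.07 and 0.18, and in ADAMTS2 -0.39 without HIF-2α library 3. Low counts limit MMP28, ADAMTS14 and ADAMTS10, and 17 members were below the filter.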
